A study of Mus musculus with 8 samples.

Results

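This account compares bone marrow derived macrophages (BMDMs) of WT mice between the 2 experiments of the study. It takes the 4 WT libraries of 8 in all, chosen by genotype and experiment in the sample labels. WT libraries 1 and 2 belong to experiment 1 and WT libraries 3 and 4 to experiment 2. WT stands for Mkl1+/+, Apoe-/- and KO for Mkl1-/-, Apoe-/-, so every group carried the Apoe deletion. All mice had received angiotensin II (Ang II) by osmotic minipump for 7 days before the marrow was taken, and the marrow cells were then differentiated to macrophages for 7 days, with the same labels in both experiments. The mice were males of 6 months of age. The labels do not say whether the 2 libraries of a pair came from separate mice or cultures, so the p-values given here measure the spread between these libraries, which may be technical. No sample received saline, so the levels have no uninfused reference. The deletion is in the whole animal and the macrophages were made in culture, so neither the aortic wall nor its own macrophages were sampled.

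Nothing in the labels differs between the pairs of WT libraries other than the experiment. Mice, marrow preparation, culture, library construction and sequencing run are therefore all confounded with it, and a biological difference between the WT cultures and a batch difference cannot be told apart. No batch term could be fitted. In bulk RNA, fewer cells of a type and less RNA per cell also cannot be told apart.

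Macrophages take on different states according to what they sense. Interferons act through STAT proteins and IRF9 on a large antiviral programme, and interferon gamma also drives CIITA, the master activator of MHC class II. Microbial products and cytokines such as TNF act through NF-κB on cytokines, chemokines and costimulatory molecules, together called classical activation. IL-4 and IL-13 drive alternative activation, and shortage of amino acids or unfolded protein drives ATF4 and its targets.

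The 4 libraries held between 33977799 and 41584540 counts on genes. The gene with most counts took at most 2.34% of a library. It was Lyz2 in libraries 1 and 2, the mitochondrial ribosomal RNA mt-Rnr2 in library 3 and the small nuclear RNA Rn7sk in library 4. In libraries 1 and 2 against 3 and 4, Lyz2 had 23359.5 and 15879 against 12098 and 7404 CPM and mt-Rnr2 had 15224 and 14460.3 against 13889 and 12672 CPM. Rn7sk had 13756 and 13709.7 against 13214 and 12856 CPM. None of these 3 passed the edgeR test (adjusted p = 0.0697, 0.404 and 0.679). Between the libraries of a pair, 21 genes in experiment 1 and 235 genes in experiment 2 differed by 2-fold or more on the log2(CPM + 1) scale, where CPM is the count scaled by TMM to a library of 1000000 counts, and between libraries of different experiments 1002 to 1410 genes did. Mkl1, the gene deleted in KO, had 25.02 and 26.4 CPM in libraries 1 and 2 and 26.2 and 28.8 CPM in libraries 3 and 4. In KO it had 19.3, 20.7, 14.6 and 10.5 CPM in libraries 5 to 8, which was below every WT library though not near 0. These counts went with the genotype labels but check them only weakly in KO libraries 5 and 6, and the difference was not tested. WT values used TMM factors of the 4 WT libraries and KO values those of all 8. No gene checks which experiment a library belongs to. Of the 1582 genes that differed by 2-fold or more in WT, 85.7% and 93.2% lay nearer to WT experiment 1 in the KO libraries 7 and 8 of experiment 2, and so did 55.8% and 56.4% in the KO libraries 5 and 6 of experiment 1. MHC class II and ribosomal protein genes in KO libraries 5 and 6 of experiment 1 were near their levels in WT experiment 2. Other lists were not. In mean log2(CPM + 1) above WT experiment 1, classical activation enzymes had -2.65 and -2.32 in KO libraries 5 and 6. In WT libraries 3 and 4 they had 1.49 and 0.62. NF-κB genes had -1.08 and -1.06 in these KO libraries and 1.02 and 0.94 in these WT libraries. Whether experiment labels were exchanged within a genotype was not tested. Apoe had 8.16 and 6.16 CPM in libraries 1 and 2 and 3.401 and 2.74 CPM in libraries 3 and 4, and the genes of the Y chromosome were expressed in every library.

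Of 14350 genes tested by edgeR's quasi-likelihood test, 4165 (29%) differed between the experiments at an adjusted p under 0.05. Of all genes tested, 2121 (14.8%) were higher and 2044 (14.2%) lower in experiment 2, and the median log2 fold change was 0.0043. Which direction held more genes depended on the scaling, since upper-quartile scaling gave 1931 higher and 2236 lower and library totals alone gave 1913 and 2170. By 2-fold or more, 929 genes were higher and 653 lower. In 10227 genes (71.3%) both libraries of one experiment lay beyond both of the other, so such a separation is the usual case here and counts for little by itself. These counts need both libraries of experiment 1. Without library 1 the test left 134 genes and without library 2 it left 204, while without library 3 or 4 it gave 5446 and 6295. Among the 4165 genes, 134 and 203 were kept without library 1 or 2, all in the same direction. Of 197 tested genes named in the text, 123 no longer passed without library 1 and 114 without library 2.

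**Figure D1:**
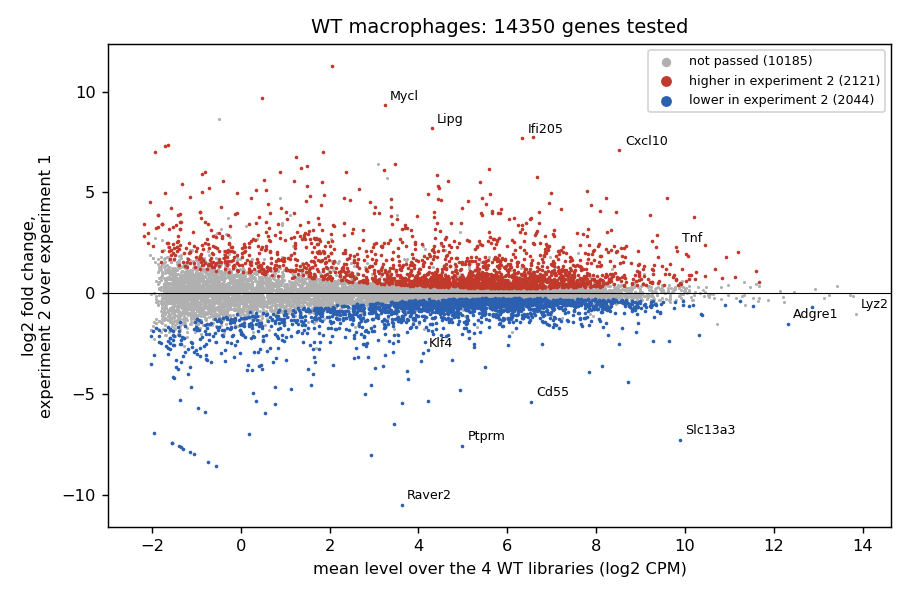
Log2 fold change of each of the 14350 genes tested (vertical axis, experiment 2 over experiment 1) against its mean level over the 4 WT libraries (horizontal axis, log2 CPM). Red points (2121) were higher and blue points (2044) lower in experiment 2 at an adjusted p under 0.05, and grey points did not pass. Of the labelled genes, Mycl, Lipg, Ifi205 and Cxcl10 lie at the top and Raver2, Ptprm and Slc13a3 at the bottom.

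Both pairs of libraries came from macrophages by their defining markers, though the levels of several markers differed. Adgre1, which encodes the pan-macrophage surface protein F4/80, had 8126 and 6935 CPM in libraries 1 and 2 and 2616 and 2648 CPM in libraries 3 and 4 (log2 fold change -1.52, standard error 0.13, adjusted p = 0.00361). Itgam, the CD11b integrin chain, had 349 and 335 CPM in libraries 1 and 2 and 153 and 111 CPM in libraries 3 and 4 (log2 fold change -1.37, standard error 0.17, adjusted p = 0.00748). Both were lower in experiment 2 with no overlap, and 71.3% of all genes tested had no overlap in one direction or the other. The lysosomal glycoprotein gene Cd68 was higher (863 and 792 against 1342 and 1385 CPM, log2 fold change 0.72, standard error 0.102, adjusted p = 0.00982), as was Csf1r, the receptor that keeps macrophages alive (1523 and 1203 against 2391 and 2166 CPM, log2 fold change 0.74, standard error 0.15, adjusted p = 0.0235). Cx3cr1, the fractalkine receptor of monocytes and resident macrophages, had 9.05 and 4.13 CPM in libraries 1 and 2 and 147 and 62.5 CPM in libraries 3 and 4 (log2 fold change 3.98, standard error 0.61, adjusted p = 0.0154). Lyz2, Mertk and Fcgr1 did not pass, with log2 fold changes of -1.01, -0.44 and 0.51. Of the 14 genes of macrophage identity tested, 4 were higher, 3 lower and 7 did not pass, where 14.8% of all genes were higher and 14.2% lower.

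The interferon-stimulated genes were a nearly uniform group. Of 53 tested, 52 were higher in experiment 2 and none lower, with a median log2 fold change of 3.04, where 14.8% of all genes were higher and the median was 0.0043. Only Bst2, which tethers virus particles to the cell surface, did not pass (0.85, adjusted p = 0.0564). Cxcl10, the chemokine that draws T cells, had 6.96 and 3.72 CPM in libraries 1 and 2 and 1073 and 387 CPM in libraries 3 and 4 (log2 fold change 7.08, standard error 0.74, adjusted p = 0.00702). Gbp5, a guanylate-binding protein of cell-autonomous defence, had 0.8397 and 0.888 CPM in libraries 1 and 2 and 222 and 156 CPM in libraries 3 and 4 (log2 fold change 7.77, standard error 0.26, adjusted p = 0.00111). Ifi205, a nuclear DNA-binding protein of the same family as the sensor Ifi204, had 0.552 and 1.03 CPM in libraries 1 and 2 and 159 and 163 CPM in libraries 3 and 4 (log2 fold change 7.69, standard error 0.24, adjusted p = 0.001104). In all of these the libraries of experiment 2 lay far above those of experiment 1.

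The same held along the whole antiviral programme. Ifit2, which binds foreign RNA, had 55.1 and 56.8 CPM in libraries 1 and 2 and 2066 and 903 CPM in libraries 3 and 4 (log2 fold change 4.73, standard error 0.47, adjusted p = 0.00645). Mx1, a GTPase against influenza viruses, rose from 13.2 and 12.3 CPM to 621 and 238 CPM (log2 fold change 5.07, standard error 0.56, adjusted p = 0.00774). Isg15, the ubiquitin-like modifier, had 12.7 and 15.01 CPM in libraries 1 and 2 and 186 and 107 CPM in libraries 3 and 4 (3.401, adjusted p = 0.00566). Among the factors that carry the signal, Irf7, which amplifies type I interferon, had 60.8 and 71.7 CPM in libraries 1 and 2 and 848 and 321 CPM in libraries 3 and 4 (log2 fold change 3.14, standard error 0.52, adjusted p = 0.0179). Irf9 changed least of the members that passed, with 82.4 and 91.04 against 145 and 125 CPM (log2 fold change 0.64, standard error 0.11, adjusted p = 0.0139). Cxcl11 had no count in libraries 1 and 2 and 611 counts in libraries 3 and 4 together, so it was at least 104-fold higher against a floor of 3 counts per library. Cxcl9, a chemokine that answers mainly to interferon gamma, had 3 counts against 341, a ratio of 119 (95% exact interval 40.4 to 581, counting error only).

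Library 3 stood above library 4 in 52 of the 53 interferon-stimulated genes, by a median log2 difference of 0.799, while library 1 stood above library 2 in 9. Over all genes tested, library 3 was above library 4 in 7464 of 14350, with a median of 0.01. The 2 libraries of experiment 2 thus differed in the strength of the programme and shared its direction against experiment 1. Without library 3 the median log2 fold change of the list was 2.20, and without library 1 or 2 the test called 2 and 2 members. When genes with as few as 1 count in total were tested as well, 53 members stayed in the test and 11 passed.

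Promoter windows from RefSeq (GRCm38.p6, 250 bases before to 50 after a gene's start, the first window listed for each symbol) were matched to 40 of the 53 genes. The interferon-stimulated response element, searched on both strands as GAAA and GAAA with any 2 bases between, was found in 25 of these 40 windows (62.5%), in 3.49% of all 27025 windows, and in 13.4% and 2.22% of the windows of genes 2-fold or more higher and lower in experiment 2. The GAS element, searched as TTCNNNGAA, was in 9 of the 40 windows against 8.47% of all windows. Both motifs were in 6 of the 40 windows, and their matches overlapped in 1. A match describes the letters only. Stretches of 100 bases are shown for the 5 members with the smallest p that hold the first motif, with its matches in capitals, because they show the element found in most of the matched windows. The stretch of Ifi205 lies at chr1:174031835-174031934, strand -, of Gbp3 at chr3:142559954-142560053, strand +, of Gbp2 at chr3:142620559-142620658, strand +, of Ifit1 at chr19:34640740-34640839, strand + and of Tgtp2 at chr11:49064228-49064327, strand -, and the first match shown lies 134, 45, 59, 104 and 70 bases before the gene's start in that order.
Ifi205: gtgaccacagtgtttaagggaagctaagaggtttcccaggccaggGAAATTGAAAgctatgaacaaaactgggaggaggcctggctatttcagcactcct
Gbp3: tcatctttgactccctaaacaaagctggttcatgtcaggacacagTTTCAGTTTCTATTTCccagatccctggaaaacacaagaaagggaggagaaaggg
Gbp2: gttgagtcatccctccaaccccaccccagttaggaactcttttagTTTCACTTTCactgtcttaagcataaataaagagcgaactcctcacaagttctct
Ifit1: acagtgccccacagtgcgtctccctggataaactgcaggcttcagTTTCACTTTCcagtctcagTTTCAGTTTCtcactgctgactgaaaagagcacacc
Tgtp2: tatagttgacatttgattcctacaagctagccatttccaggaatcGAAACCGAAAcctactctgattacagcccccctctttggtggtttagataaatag
Ifit1 and Gbp3 hold 2 matches each in the stretch shown, and those of Gbp3 overlap. All 5 genes rose. Gbp3 had 9.45 and 11.5 CPM in libraries 1 and 2 and 298 and 175 CPM in libraries 3 and 4, Gbp2 had 22.9 and 20.4 CPM in libraries 1 and 2 and 583 and 319.5 CPM in libraries 3 and 4, Ifit1 had 40.96 and 39.99 CPM in libraries 1 and 2 and 866 and 448 CPM in libraries 3 and 4, and Tgtp2, an interferon-induced GTPase, had 3.43 and 4.64 CPM in libraries 1 and 2 and 115 and 60.4 CPM in libraries 3 and 4. Their log2 fold changes were 4.497, 4.38, 4.02 and 4.45, with adjusted p of 0.00361, 0.00407, 0.00538 and 0.00547. Reads of near-identical members of the Gbp, Ifi20x, Tgtp, Slfn and Oas families could be shared or lost in counting, so the single values of these families are less certain than the group.

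The genes that sense nucleic acids or carry the interferon signal moved less. Of 21 tested, 16 were higher and 2 lower, with a median of 0.59, where 14.8% and 14.2% of all genes were higher and lower. Irf1, a transcription factor induced by both interferon gamma and NF-κB, had 42.5 and 46.5 CPM in libraries 1 and 2 and 395 and 424 CPM in libraries 3 and 4 (log2 fold change 3.204, standard error 0.1, adjusted p = 0.001104), and in this gene the libraries of each pair were close together. Socs3, a feedback inhibitor of cytokine receptors, had 55.4 and 50.99 CPM in libraries 1 and 2 and 216 and 244 CPM in libraries 3 and 4 (log2 fold change 2.11, standard error 0.1, adjusted p = 0.00117). Tlr3, the receptor for double-stranded RNA, had 17.9 and 18.2 CPM in libraries 1 and 2 and 112 and 58.5 CPM in libraries 3 and 4 (log2 fold change 2.24, standard error 0.34, adjusted p = 0.0151). Interferon beta was scarce, and no other interferon is given here. Ifnb1, interferon beta, had 1 and 0 counts in libraries 1 and 2 and 39 and 12 counts in libraries 3 and 4 (adjusted p = 0.0253). Ifngr1 and Jak2, a receptor chain and a kinase of the interferon gamma pathway, were higher (log2 fold changes 0.98 and 1.57), Irf8 and Mavs were lower (-0.61 and -0.29), and Irf3, Jak1 and Tlr9 did not pass. Without library 1 or 2 the test called 2 and 2 of the members that were higher, and without library 4 the median was 0.94.

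Genes of MHC class II, which presents antigen to helper T cells, were higher in experiment 2 in 11 of 13 tested, none was lower, and the median was 2.32, where 14.8% of all genes were higher. Ciita, the master activator, had 0.192 and 0.344 CPM in libraries 1 and 2 and 19.5 and 17.04 CPM in libraries 3 and 4 (log2 fold change 6.103, standard error 0.25, adjusted p = 0.00114). Cd74, the invariant chain that guides class II molecules, had 7.73 and 7.85 CPM in libraries 1 and 2 and 404 and 84.99 CPM in libraries 3 and 4 (log2 fold change 4.97, standard error 0.87, adjusted p = 0.0205), and the alpha chain gene H2-Aa had 1.92 and 1.63 CPM in libraries 1 and 2 and 140.2 and 24.5 CPM in libraries 3 and 4 (log2 fold change 5.53, standard error 1.05, adjusted p = 0.0243). Ciita was alike in libraries 3 and 4, whereas Cd74 and H2-Aa were several times higher in library 3 than in library 4. Ctss, the cathepsin that trims the invariant chain, had 2651 and 2550.1 CPM in libraries 1 and 2 and 3996 and 3761 CPM in libraries 3 and 4 (log2 fold change 0.58, standard error 0.11, adjusted p = 0.0197). March1, a ligase that removes class II from the surface, and H2-DMb2 did not pass (log2 fold changes -0.44 and 0.91). The limma-voom test called 7 of the 13 members, the test without a filter 7, and without library 1 or 2 edgeR called 1 and 1. Where only genes with 10 counts in every library were kept, which drops low class II genes, the median was 1.23.

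MHC class I, which shows peptides from inside the cell, moved with it at a smaller size. Of 20 members tested, 16 were higher, none was lower, and the median was 1.18, where 14.8% of all genes were higher. Tapbpl, a peptide editor, had 11.1 and 10.3 CPM in libraries 1 and 2 and 41.5 and 37.03 CPM in libraries 3 and 4 (log2 fold change 1.88, standard error 0.101, adjusted p = 0.00141). The immunoproteasome subunit gene Psmb10 had 45.01 and 46.5 CPM in libraries 1 and 2 and 201 and 136 CPM in libraries 3 and 4 (log2 fold change 1.88, standard error 0.202, adjusted p = 0.00623), and Psmb9 had 23.8 and 23.6 CPM in libraries 1 and 2 and 103 and 61.2 CPM in libraries 3 and 4 (1.79, adjusted p = 0.0141). Tap1, which with Tap2 pumps peptides into the endoplasmic reticulum, had 76.6 and 79.7 CPM in libraries 1 and 2 and 339.8 and 191 CPM in libraries 3 and 4 (log2 fold change 1.77, standard error 0.29, adjusted p = 0.0175). All 20 members were higher in library 3 than in library 4. The test called 1 and 1 members without library 1 or 2, and 10 when no filter was set.

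**Figure D2:**
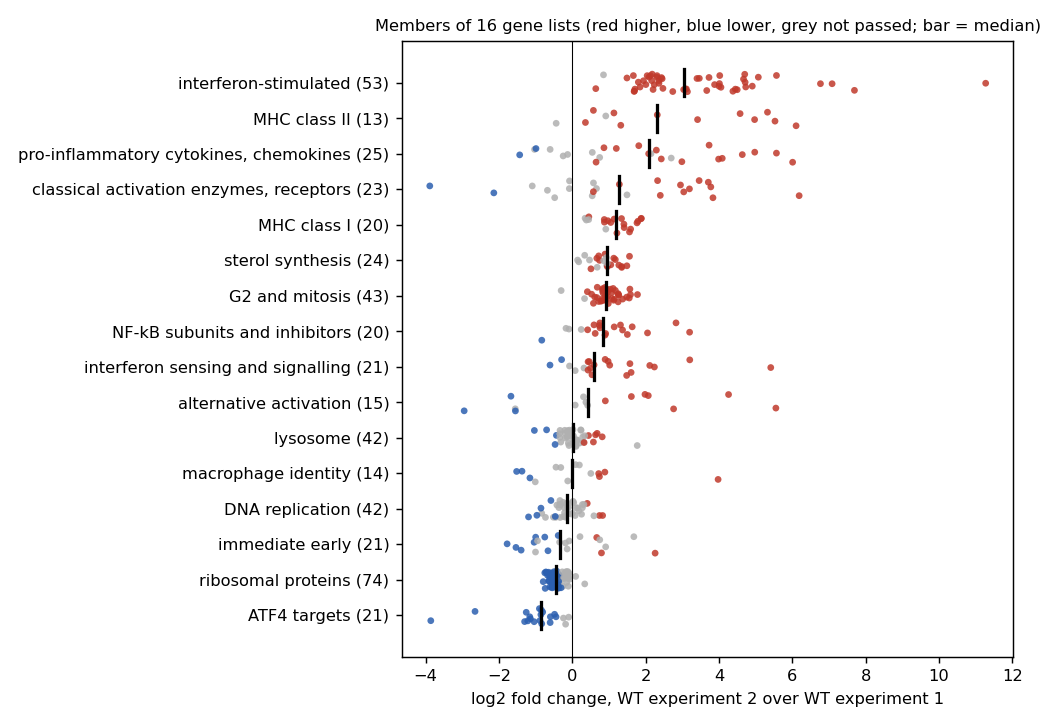
Log2 fold change between the experiments in WT (horizontal axis) for the tested members of 16 gene lists (rows, with the number tested), red where higher, blue where lower and grey where not passed, and a black bar at each median. The medians run from 3.04 for interferon-stimulated genes to -0.86 for ATF4 targets, and the point at 11.3 is Cxcl11, whose fitted value rests on libraries with no count.

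The cytokines and chemokines of classical activation were mostly higher but not as a block. Of 25 tested, 15 were higher, 2 lower and 8 did not pass, and the median was 2.08. The shares of all genes were 14.8% higher and 14.2% lower. Tnf, the leading pro-inflammatory cytokine, had 317 and 288 CPM in libraries 1 and 2 and 1377 and 1586 CPM in libraries 3 and 4 (log2 fold change 2.29, standard error 0.12, adjusted p = 0.00143). Csf1, the growth factor of macrophages, had 5.28 and 5.84 CPM in libraries 1 and 2 and 93.99 and 95.2 CPM in libraries 3 and 4 (log2 fold change 4.09, standard error 0.089, adjusted p = 9.68e-04). In both genes the libraries of a pair were close and the pairs far apart.

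The neutrophil chemokine Cxcl2 had 152 and 119 CPM in libraries 1 and 2 and 534 and 615 CPM in libraries 3 and 4 (log2 fold change 2.08, standard error 0.16, adjusted p = 0.00275), and Cxcl3 had 0.408 and 0.4297 CPM in libraries 1 and 2 and 9.48 and 11.5 CPM in libraries 3 and 4 (log2 fold change 4.64, standard error 0.21, adjusted p = 0.00117). Il1b, the inflammasome cytokine, had 6.05 and 3.92 CPM in libraries 1 and 2 and 119 and 40.6 CPM in libraries 3 and 4 (log2 fold change 3.99, standard error 0.63, adjusted p = 0.0167). Il12b, the shared chain of IL-12 and IL-23, had 0.264 and 0.0286 CPM in libraries 1 and 2 and 14.9 and 5.43 CPM in libraries 3 and 4 (log2 fold change 6.01, standard error 0.904, adjusted p = 0.01501). Il27, which was not in the list and was chosen after its values were seen, had 0.984 and 1.12 CPM in libraries 1 and 2 and 20.1 and 12.5 CPM in libraries 3 and 4 (log2 fold change 3.96, standard error 0.301, adjusted p = 0.00299). Csf2, the growth factor GM-CSF, had 4 counts in libraries 1 and 2 together and 127 in libraries 3 and 4, a ratio of 33.3 (95% exact interval 12.7 to 124, counting error only). Ccl5, a T cell chemokine, had 1.25 and 0.802 CPM in libraries 1 and 2 and 65.3 and 33.3 CPM in libraries 3 and 4 (log2 fold change 5.57, standard error 0.48, adjusted p = 0.00489). Library 3 was above library 4 in Il1b, Il12b and Ccl5, and below it in Tnf and Cxcl2.

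Some ligands went the other way or did not pass. Il10, the anti-inflammatory cytokine, was lower at 19.7 and 26.96 CPM in libraries 1 and 2 and 7.899 and 9.38 CPM in libraries 3 and 4 (log2 fold change -1.43, standard error 0.19, adjusted p = 0.00875), as was Osm, oncostatin M (15.3 and 14.7 against 7.74 and 7.36 CPM, log2 fold change -0.99, standard error 0.11, adjusted p = 0.00547). The monocyte chemokines Ccl2 and Ccl7 did not pass, with 304 and 317 CPM in libraries 1 and 2 and 320.2 and 203 CPM in libraries 3 and 4 for Ccl2 and log2 fold changes of -0.25 and -0.603. Il6 did not pass either, at 1.224 and 0.917 CPM in libraries 1 and 2 and 11.3 and 2.66 CPM in libraries 3 and 4 (2.699, adjusted p = 0.0661). Ebi3, the partner chain of Il27, had a log2 fold change of -0.13 (adjusted p = 0.459). Without library 1 or 2 the test called 4 and 5 of the ligands that were higher, and without library 3 the median of the list was 1.30.

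The subunits and inhibitors of NF-κB, many of which are themselves NF-κB targets, were higher in 16 of 20 tested and lower in 1, with a median of 0.83. The shares of all genes were 14.8% higher and 14.2% lower. Nfkb2, the precursor of the p52 subunit, had 62.7 and 55.3 CPM in libraries 1 and 2 and 237 and 252 CPM in libraries 3 and 4 (log2 fold change 2.05, standard error 0.098, adjusted p = 0.00117). The inhibitor gene Nfkbie had 18.9 and 12.5 CPM in libraries 1 and 2 and 144 and 146 CPM in libraries 3 and 4 (log2 fold change 3.200, standard error 0.21, adjusted p = 0.00274), and Nfkbia, which encodes IκBα, had 248 and 213 CPM in libraries 1 and 2 and 618 and 688 CPM in libraries 3 and 4 (log2 fold change 1.503, standard error 0.12, adjusted p = 0.00305). Traf1, an adaptor of TNF receptors, had 40.9 and 24.6 CPM in libraries 1 and 2 and 250.1 and 216 CPM in libraries 3 and 4 (log2 fold change 2.83, standard error 0.27, adjusted p = 0.00575). Otud1, a deubiquitinase, was the member that was lower (-0.83, adjusted p = 0.00858), and Nfkbiz, Bcl3 and Zc3h12a did not pass. The test called 3 and 4 of the members that were higher when library 1 or 2 was left out.

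The κB motif, searched on both strands as GGG and TTTCC with any 2 bases between, was in 11 of the 33 matched windows of these ligands and NF-κB genes (33.3%), in 1.62% of all windows, and in 0 of the 40 interferon-stimulated windows. The interferon-stimulated response element was in none of these 33 windows, against 3.49% of all windows. Each of these counts of 0 lies near its share over all windows. Stretches of the 4 members with the smallest p that hold the κB motif are shown with it in capitals, to set beside the interferon-stimulated ones. They lie at chr3:107760569-107760668, strand - for Csf1, chr5:90785983-90786082, strand + for Cxcl3, chr19:46304681-46304780, strand + for Nfkb2 and chr5:90903757-90903856, strand + for Cxcl2.
Csf1: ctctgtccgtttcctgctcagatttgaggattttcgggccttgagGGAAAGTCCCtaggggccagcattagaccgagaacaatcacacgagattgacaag
Cxcl3: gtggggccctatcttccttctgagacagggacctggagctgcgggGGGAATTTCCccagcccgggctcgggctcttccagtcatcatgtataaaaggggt
Nfkb2: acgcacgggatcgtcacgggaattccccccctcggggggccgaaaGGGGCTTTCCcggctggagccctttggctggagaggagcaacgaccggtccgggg
Cxcl2: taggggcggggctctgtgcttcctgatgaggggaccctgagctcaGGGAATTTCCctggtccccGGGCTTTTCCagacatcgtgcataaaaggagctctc
Cxcl2 holds 2 matches and the other three hold 1 each. All 4 genes rose, with log2 fold changes of 4.09 for Csf1, 4.64 for Cxcl3, 2.05 for Nfkb2 and 2.08 for Cxcl2.

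Enzymes and surface proteins of classical activation were higher in 12 of 23 tested and lower in 2, with a median of 1.28. The shares of all genes were 14.8% higher and 14.2% lower. Cd40, the costimulatory receptor for T cell help, had 10.1 and 10.198 CPM in libraries 1 and 2 and 151 and 114 CPM in libraries 3 and 4 (log2 fold change 3.71, standard error 0.16, adjusted p = 0.00117). Nlrp3, the sensor of the inflammasome, had 76.2 and 56.2 CPM in libraries 1 and 2 and 553 and 536 CPM in libraries 3 and 4 (log2 fold change 3.04, standard error 0.17, adjusted p = 0.00158), and Gpr84, a receptor for medium-chain fatty acids, had 32.5 and 27.4 CPM in libraries 1 and 2 and 249 and 215 CPM in libraries 3 and 4 (log2 fold change 2.95, standard error 0.13, adjusted p = 0.00117). Clec4e, which encodes the mycobacterial glycolipid receptor Mincle, had 211 and 111 CPM in libraries 1 and 2 and 2719.7 and 1694 CPM in libraries 3 and 4 (log2 fold change 3.78, standard error 0.44, adjusted p = 0.00875).

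Nos2, the inducible nitric oxide synthase, had 1.799 and 2.32 CPM in libraries 1 and 2 and 43.7 and 14.9 CPM in libraries 3 and 4 (log2 fold change 3.84, standard error 0.62, adjusted p = 0.0175), and Acod1, which makes itaconate, had 616 and 279 CPM in libraries 1 and 2 and 3094 and 1629 CPM in libraries 3 and 4 (log2 fold change 2.400, standard error 0.52, adjusted p = 0.03400). Ptgs2, the inducible cyclooxygenase, had 82.5 and 55.7 CPM in libraries 1 and 2 and 171 and 165 CPM in libraries 3 and 4 (log2 fold change 1.28, standard error 0.197, adjusted p = 0.0134). Against this direction, Fpr1, the receptor for formylated peptides of bacteria, was lower at 485 and 368 CPM in libraries 1 and 2 and 47.7 and 10.02 CPM in libraries 3 and 4 (log2 fold change -3.88, standard error 0.803, adjusted p = 0.0299), and the siderophore-binding protein gene Lcn2 was lower at 48.8 and 30.97 CPM in libraries 1 and 2 and 12.6 and 5.54 CPM in libraries 3 and 4 (log2 fold change -2.14, standard error 0.46, adjusted p = 0.0324). Among the 9 that did not pass were Cd86, Saa3, Sod2, Marco and Slc7a11, with log2 fold changes of -0.48, 0.66, 0.58, -0.68 and -0.08. Without library 1 or 2 the test called 5 and 4 of the members that were higher, without a filter it called 5, and without library 3 the median was 0.59.

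Costimulatory and adhesion molecules included genes of both directions, where over all genes 14.8% were higher and 14.2% lower. Of 18 costimulatory and checkpoint genes, 7 were higher and 3 lower. Icosl, the ligand of ICOS, had 32.97 and 30.7 CPM in libraries 1 and 2 and 199 and 164 CPM in libraries 3 and 4 (log2 fold change 2.51, standard error 0.12, adjusted p = 0.00117), while the checkpoint gene Vsir, which encodes VISTA, had 372 and 406 CPM in libraries 1 and 2 and 145 and 158 CPM in libraries 3 and 4 (log2 fold change -1.36, standard error 0.098, adjusted p = 0.00256). Il2ra, the high-affinity chain of the IL-2 receptor, had 118 and 127 counts in libraries 1 and 2 and 1 and 4 in libraries 3 and 4 (adjusted p = 0.00361). Of 23 integrins and adhesion molecules, 9 were higher and 4 lower. Icam1 had 179.9 and 163 CPM in libraries 1 and 2 and 1052 and 1044 CPM in libraries 3 and 4 (log2 fold change 2.61, standard error 0.103, adjusted p = 0.00111), and Itga4, the alpha chain that binds VCAM1, had 139.9 and 124 CPM in libraries 1 and 2 and 711 and 546 CPM in libraries 3 and 4 (log2 fold change 2.25, standard error 0.16, adjusted p = 0.00256). Itgax, the CD11c chain, had 3.17 and 2.23 CPM in libraries 1 and 2 and 30.2 and 45.4 CPM in libraries 3 and 4 (log2 fold change 3.798, standard error 0.29, adjusted p = 0.00338), opposite to Itgam, the CD11b chain.

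Of 21 Toll-like receptors and adaptors, 9 were higher and 5 lower, where 14.8% and 14.2% of all genes were. Tlr2, which senses bacterial lipoproteins, had 148 and 127 CPM in libraries 1 and 2 and 591 and 535 CPM in libraries 3 and 4 (log2 fold change 2.04, standard error 0.12, adjusted p = 0.00169), while Tlr4, which senses endotoxin, had 245 and 246 CPM in libraries 1 and 2 and 199 and 177 CPM in libraries 3 and 4 (log2 fold change -0.38, standard error 0.093, adjusted p = 0.0355). Irak3, an inhibitor of this pathway, and Ticam2, an adaptor of TLR4, were lower (log2 fold changes -1.28 and -1.06). Mir155hg, the host transcript of an inflammatory microRNA and chosen after its values were seen, had 0.696 and 0.888 CPM in libraries 1 and 2 and 21.8 and 18.3 CPM in libraries 3 and 4 (log2 fold change 4.67, standard error 0.19, adjusted p = 0.00114).

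**Figure D3:**
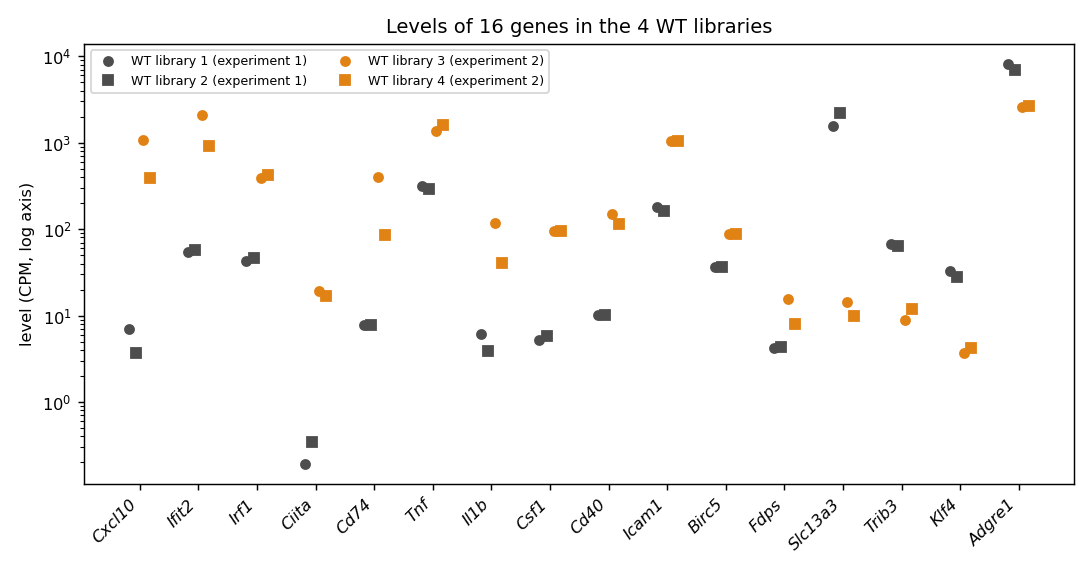
Level of 16 genes in each of the 4 WT libraries (vertical axis, CPM on a log axis), grey for experiment 1 and orange for experiment 2, circles for libraries 1 and 3 and squares for libraries 2 and 4. In the first 12 genes both orange points lie above both grey points, and in Slc13a3, Trib3, Klf4 and Adgre1 both lie below.

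Genes of G2 and mitosis were higher in experiment 2 in 41 of 43 tested, none was lower, and the median was 0.92, where 14.8% of all genes were higher. Birc5, which encodes survivin of the chromosomal passenger complex, had 36.1 and 36.8 CPM in libraries 1 and 2 and 87.4 and 87.1 CPM in libraries 3 and 4 (log2 fold change 1.26, standard error 0.065, adjusted p = 0.00133). Nek2, a kinase of the centrosome, had 27.4 and 27.9 CPM in libraries 1 and 2 and 66.5 and 65.01 CPM in libraries 3 and 4 (log2 fold change 1.25, standard error 0.068, adjusted p = 0.00143), and Plk1, the master kinase of mitosis, had 18.5 and 18.6 CPM in libraries 1 and 2 and 61.6 and 49.7 CPM in libraries 3 and 4 (log2 fold change 1.59, standard error 0.12, adjusted p = 0.00293). The range of the members was -0.303 to 1.78 on the log2 scale, with Cenpa, the histone of the centromere, at the top (16.2 and 16.8 against 62.3 and 50.9 CPM). Libraries 3 and 4 were close, with a median log2 difference of 0.08. Without library 1 the test called none of the 43 genes and without library 2 it called 3, although the median was then 0.95 and 0.94.

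Of 42 genes of DNA replication tested, 3 were higher and 5 lower, where 14.8% and 14.2% of all genes were, and their median was -0.15. The licensing factors Cdc6 and Cdt1 were lower (30.2 and 32.9 against 11.9 and 15.7 CPM and 26.9 and 32.3 against 13.8 and 16.6 CPM, log2 fold changes -1.19 and -0.96), as was E2f2, a factor that drives entry into S phase (46.2 and 41.5 against 25.1 and 23.5 CPM, -0.85). Rfc5, a subunit of the clamp loader, was higher (30.4 and 30.2 against 49.1 and 52.2 CPM, log2 fold change 0.74, standard error 0.073, adjusted p = 0.00444). Among cyclins and inhibitors of the cycle, Cdkn2c was higher (44.03 and 44.5 against 76.7 and 82.5 CPM, 0.85) and Sesn2, a stress-induced inhibitor of mTORC1, was lower (60.9 and 70.5 against 28.1 and 25.3 CPM, -1.298).

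The CHR element, searched as TTTGAA on both strands, was in 25 of the 35 matched windows of the mitosis list (71.4%), in 6 of 35 of the replication list and in 18.1% of all windows. The CCAAT box, searched as CCAAT, was in 25 of the same 35 windows and in 37.9% of all windows. Stretches of the 3 mitosis members with the smallest p that hold the CHR letters are shown with these in capitals, at chr5:30666836-30666935, strand + for Cenpa, chr9:70421669-70421768, strand - for the cyclin gene Ccnb2 and chr4:117178823-117178922, strand - for the kinesin gene Kif2c.
Cenpa: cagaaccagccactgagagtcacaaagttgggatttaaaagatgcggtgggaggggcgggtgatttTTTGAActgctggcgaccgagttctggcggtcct
Ccnb2: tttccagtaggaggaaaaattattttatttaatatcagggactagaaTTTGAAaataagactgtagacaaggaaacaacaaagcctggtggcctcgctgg
Kif2c: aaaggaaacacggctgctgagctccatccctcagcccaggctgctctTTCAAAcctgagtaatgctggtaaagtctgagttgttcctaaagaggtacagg
The motif is 6 letters long and common, so single matches carry little. Ccnb2 had 37.7 and 39.8 CPM in libraries 1 and 2 and 125 and 103 CPM in libraries 3 and 4 (log2 fold change 1.55, standard error 0.11, adjusted p = 0.00264) and Kif2c had 33.9 and 31.9 CPM in libraries 1 and 2 and 84.9 and 73.4 CPM in libraries 3 and 4 (log2 fold change 1.27, standard error 0.097, adjusted p = 0.002899).

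Genes of the sterol synthesis list, which SREBP2 turns on when cell cholesterol is low, were higher in 15 of 24 tested and lower in none, with a median of 0.93, where 14.8% of all genes were higher. Ebp, a sterol isomerase, had 32.8 and 33.9 CPM in libraries 1 and 2 and 47.05 and 47.9 CPM in libraries 3 and 4 (log2 fold change 0.51, standard error 0.069, adjusted p = 0.00901), and Fdps, which makes farnesyl diphosphate, had 4.17 and 4.297 CPM in libraries 1 and 2 and 15.7 and 8.03 CPM in libraries 3 and 4 (log2 fold change 1.49, standard error 0.35, adjusted p = 0.0351). Library 3 was above library 4 in 23 of the 24 genes. Without library 1 or 2 the test called none of them, without library 4 it called 24, and without a filter 9. The median was 0.53 without library 3. The CCAAT box was in 15 of the 17 matched windows.

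Of 13 genes of fatty acid synthesis, 1 was higher, where 14.8% of all genes were higher. It was the desaturase gene Fads2 (8.01 and 5.84 against 56.7 and 20.4 CPM, log2 fold change 2.47, standard error 0.55, adjusted p = 0.0358). Scd1, a desaturase under SREBP1, was high in library 3 alone and did not pass (6.33 and 5.13 against 50.8 and 6.58 CPM, adjusted p = 0.149). Of 15 genes of LXR and cholesterol efflux, 5 were higher and 5 lower, where 14.8% and 14.2% of all genes were. Nr1h3, which encodes LXRα, was higher (47.9 and 44.5 against 116 and 118 CPM, log2 fold change 1.34, standard error 0.074, adjusted p = 0.001495), as was Ch25h, which makes 25-hydroxycholesterol (4.08 and 3.98 against 50.2 and 24.04 CPM, log2 fold change 3.203, standard error 0.41, adjusted p = 0.0106). Plin2, which coats lipid droplets, was lower (933 and 914 against 440.3 and 502 CPM, log2 fold change -0.97, standard error 0.11, adjusted p = 0.00565).

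Among the programmes that were lower in experiment 2, the targets of ATF4 were nearly uniform. Of 21 tested, 18 were lower and none higher, with a median of -0.86, where 14.2% of all genes were lower. Trib3, a pseudokinase induced by ATF4, had 67.8 and 63.6 CPM in libraries 1 and 2 and 8.92 and 12.01 CPM in libraries 3 and 4 (log2 fold change -2.65, standard error 0.16, adjusted p = 0.00183). Vldlr, the VLDL receptor, had 20.3 and 29.3 CPM in libraries 1 and 2 and 1.98 and 1.43 CPM in libraries 3 and 4 (log2 fold change -3.86, standard error 0.27, adjusted p = 0.00264). Phgdh, the first enzyme of serine synthesis, had 68.3 and 71.99 CPM in libraries 1 and 2 and 31.4 and 32.2 CPM in libraries 3 and 4 (log2 fold change -1.14, standard error 0.071, adjusted p = 0.00185), and Asns, asparagine synthetase, had 311 and 293 CPM in libraries 1 and 2 and 114 and 147 CPM in libraries 3 and 4 (log2 fold change -1.21, standard error 0.14, adjusted p = 0.00645). Ddit3, which encodes CHOP, had 71.9 and 73.3 CPM in libraries 1 and 2 and 38.4 and 39.7 CPM in libraries 3 and 4 (log2 fold change -0.896, standard error 0.067, adjusted p = 0.00273). The pairs did not overlap in any of these genes, as was so in 71.3% of all genes tested. Atf4 itself was lower by less (448 and 449 against 313 and 347 CPM, log2 fold change -0.44, standard error 0.093, adjusted p = 0.0251). Mthfd2, Cebpb and Slc1a5 did not pass. The CARE motif, searched as TGATGNAA on both strands, was in 5 of the 19 matched windows and in 4.06% of all windows. The test called 3 and 3 members when library 1 or 2 was left out. In the unfolded protein list, 6 of 20 were higher, 2 lower and 12 did not pass, where 14.8% of all genes were higher. The chaperone gene Hspa5 had 893 and 920.3 CPM in libraries 1 and 2 and 1666 and 1272 CPM in libraries 3 and 4 (log2 fold change 0.696, standard error 0.15, adjusted p = 0.0287).

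Ribosomal protein genes were lower in 53 of 74 tested and higher in none, at a small size, with a median of -0.43, where 14.2% of all genes were lower. Rplp0, of the ribosomal stalk, had 1088 and 1066 CPM in libraries 1 and 2 and 659 and 632 CPM in libraries 3 and 4 (log2 fold change -0.74, standard error 0.093, adjusted p = 0.00751). Rps7, of the small subunit, had 342 and 316 CPM in libraries 1 and 2 and 189.9 and 190.3 CPM in libraries 3 and 4 (log2 fold change -0.79, standard error 0.085, adjusted p = 0.00538). No member passed the test with a change of 2-fold or more. With library totals alone as the scaling, the median was -0.47. Without library 1 or 2 the test called none of the 74 genes. Of the mitochondrial mRNAs, 5 of 7 tested were higher against 14.8% of all genes, among them mt-Cytb (365 and 325 against 638 and 686 CPM, log2 fold change 0.94, standard error 0.11, adjusted p = 0.00575), and mt-Co1 did not pass (0.042).

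Of 21 immediate early factors, 3 were higher and 8 lower, where 14.8% and 14.2% of all genes were, and their median was -0.34. Jun, a subunit of AP-1, had 153 and 173 CPM in libraries 1 and 2 and 77.2 and 81.6 CPM in libraries 3 and 4 (log2 fold change -1.04, standard error 0.093, adjusted p = 0.00361), and Atf3, a stress-induced repressor, had 542 and 514 CPM in libraries 1 and 2 and 279 and 250.001 CPM in libraries 3 and 4 (log2 fold change -0.998, standard error 0.099, adjusted p = 0.00449). Fosl2 was lower (-1.53) and Junb higher (0.797), while Fos and Egr1 did not pass.

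Several single genes fell far more than any of these lists. Slc13a3, a carrier of citrate cycle acids such as succinate, had 1556 and 2181 CPM in libraries 1 and 2 and 14.4 and 9.94 CPM in libraries 3 and 4 (log2 fold change -7.26, standard error 0.32, adjusted p = 0.00117). Ptprm, a receptor tyrosine phosphatase, had 54.3 and 71.3 CPM in libraries 1 and 2 and 0.295 and 0.364 CPM in libraries 3 and 4 (log2 fold change -7.56, standard error 0.23, adjusted p = 0.001104). Raver2, an RNA-binding protein, had 1815 counts in libraries 1 and 2 together and 1 in libraries 3 and 4, a ratio of 1732 (95% exact interval 310.4 to 68442, counting error only). Cd55, which shields cells from complement, had 144 and 215 CPM in libraries 1 and 2 and 6.64 and 1.93 CPM in libraries 3 and 4 (log2 fold change -5.38, standard error 0.63, adjusted p = 0.00883). Ndrg1, a stress and differentiation gene, had 626 and 992 CPM in libraries 1 and 2 and 28.4 and 47.6 CPM in libraries 3 and 4 (log2 fold change -4.41, standard error 0.39, adjusted p = 0.005197), and Grb10, an adaptor of insulin signalling, had 24.3 and 47.6 CPM in libraries 1 and 2 and 1.07 and 0.6997 CPM in libraries 3 and 4 (log2 fold change -5.33, standard error 0.48, adjusted p = 0.00527). Lancl3, Morc4 and the transcripts RP23-205D10.2 and AC111067.4 completed the 12 largest falls together with Fpr1 and Vldlr. Lancl3 and Morc4 had log2 fold changes of -4.803 and -4.26.

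At the other end, Mycl, a MYC family factor, had 2 counts against 1376, a ratio of 721 (95% exact interval 199 to 5959.8, counting error only). Lipg, endothelial lipase, had 0.144 and 0.115 CPM in libraries 1 and 2 and 56.98 and 21.2 CPM in libraries 3 and 4 (log2 fold change 8.19, standard error 0.83, adjusted p = 0.00659). The other genes among the 12 largest rises were Gbp5, Ifi205, Cxcl10, Gbp4, Ms4a4c, Ciita, Ifit1bl1, Ly6a, Ccl5 and H2-Aa. Ly6a, which encodes Sca-1, had 2.59 and 4.899 CPM in libraries 1 and 2 and 317 and 85.5 CPM in libraries 3 and 4 (log2 fold change 5.76, standard error 0.85, adjusted p = 0.0143), and Ms4a4c, a gene of monocytes, had 1.27 and 1.43 CPM in libraries 1 and 2 and 151 and 39.5 CPM in libraries 3 and 4 (log2 fold change 6.14, standard error 0.86, adjusted p = 0.0129). At most 3 counts in each library of one experiment and at least 1 CPM in each library of the other were found for 7 genes that were higher and 6 that were lower in experiment 2. In KO, Mycl had 0.348, 0.124, 0 and 0 CPM in libraries 5 to 8, whereas Lipg had 7.01, 7.898, 0.293 and 0.265 CPM.

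Of 15 markers of alternative activation tested, 7 were higher and 3 lower, where 14.8% and 14.2% of all genes were. Klf4, a transcription factor of monocytes that favours alternative activation, had 32.8 and 28.1 CPM in libraries 1 and 2 and 3.72 and 4.17 CPM in libraries 3 and 4 (log2 fold change -2.95, standard error 0.13, adjusted p = 0.00117). Il4ra, the receptor chain for IL-4 and IL-13, had 147 and 208 CPM in libraries 1 and 2 and 59.6 and 61.6 CPM in libraries 3 and 4 (log2 fold change -1.55, standard error 0.18, adjusted p = 0.00666). Tfrc, the transferrin receptor of the iron and haem list, was also lower (420.0 and 449.8 against 87.3 and 186 CPM, log2 fold change -1.67, standard error 0.38, adjusted p = 0.0374). Ccl22, a chemokine for regulatory T cells, was higher (0.144 and 0.0286 against 5.01 and 3.81 CPM, log2 fold change 5.55, standard error 0.49, adjusted p = 0.00363), and so was the lectin gene Mgl2 (0.09597 and 0.0286 against 1.79 and 0.812 CPM, 4.26). Mrc1, the mannose receptor, did not pass (454 and 558 against 559.9 and 749.9 CPM, 0.37). Retnla and Chil3, textbook markers of this state, were too low to be tested.

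Of 31 transcription factors of the myeloid lineage, 7 were higher and 6 lower, where 14.8% and 14.2% of all genes were. Tfec, of the MITF family, had 13.6 and 14.5 CPM in libraries 1 and 2 and 76.4 and 103 CPM in libraries 3 and 4 (log2 fold change 2.67, standard error 0.16, adjusted p = 0.00199), and Batf2, an interferon-induced factor, had 3.43 and 3.64 CPM in libraries 1 and 2 and 32.5 and 17.9 CPM in libraries 3 and 4 (log2 fold change 2.83, standard error 0.33, adjusted p = 0.00774). Cebpa, which drives the granulocyte and monocyte lineage, was lower (30.5 and 31.3 against 5.54 and 11.2 CPM, log2 fold change -1.89, standard error 0.34, adjusted p = 0.02102), as was Batf3 (2.81 and 4.38 against 0.161 and 0.5597 CPM, log2 fold change -3.31, standard error 0.56, adjusted p = 0.0154). Spi1, the master factor of macrophages, did not pass (318 and 323 against 375 and 359 CPM, 0.19).

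Among 19 genes for the uptake of dying cells, 6 were higher and 4 lower, where 14.8% and 14.2% of all genes were. Of 15 scavenger receptors, 3 were higher and 4 lower, and of 15 iron and haem genes 4 were higher and 3 lower. Axl, a receptor for dying cells that interferon induces, had 14.3 and 16.2 CPM in libraries 1 and 2 and 426 and 135 CPM in libraries 3 and 4 (log2 fold change 4.198, standard error 0.63, adjusted p = 0.0151), while Stab1, a scavenger receptor, had 874 and 944 CPM in libraries 1 and 2 and 431 and 517 CPM in libraries 3 and 4 (log2 fold change -0.94, standard error 0.13, adjusted p = 0.00875). Cd5l, an apoptosis inhibitor secreted by macrophages, had 914 and 1185 CPM in libraries 1 and 2 and 160.4 and 245 CPM in libraries 3 and 4 (log2 fold change -2.37, standard error 0.26, adjusted p = 0.00628). Of 18 complement genes tested, 5 were higher and 3 lower, and of 7 Fc receptor genes 3 were higher and 1 lower. C1qb, a chain of complement C1q, was higher by 0.91 on the log2 scale (adjusted p = 0.0286). C3 was higher too (524 and 334 against 2078 and 1218 CPM, log2 fold change 1.94, standard error 0.36, adjusted p = 0.0219). Fcgr2b, the inhibitory Fc receptor, had 29.4 and 27.4 CPM in libraries 1 and 2 and 249 and 154 CPM in libraries 3 and 4 (log2 fold change 2.83, standard error 0.26, adjusted p = 0.00527). Slc40a1, the iron exporter, was higher (8.23 and 7.96 against 21.96 and 48.2 CPM, 2.11) and the ferritin gene Fth1 lower (9511 and 8792 against 5445 and 5914 CPM, -0.69).

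Among 15 growth factors tested, 2 were higher and 3 lower, where 14.8% and 14.2% of all genes were. Of 20 matrix proteases and their inhibitors, 5 were higher and 1 lower, and of 17 genes of prostaglandins and leukotrienes 3 were higher and 4 lower. Hgf, hepatocyte growth factor, had 40.6 and 41.1 CPM in libraries 1 and 2 and 8.38 and 11.4 CPM in libraries 3 and 4 (log2 fold change -2.05, standard error 0.16, adjusted p = 0.002998), and Pdgfc, a platelet-derived growth factor, had 8.901 and 12.003 CPM in libraries 1 and 2 and 1.45 and 1.74 CPM in libraries 3 and 4 (log2 fold change -2.71, standard error 0.23, adjusted p = 0.00323). Mmp14, a matrix protease of the cell surface, had 27.5 and 19.5 CPM in libraries 1 and 2 and 150.3 and 133 CPM in libraries 3 and 4 (log2 fold change 2.59, standard error 0.19, adjusted p = 0.002998). Spp1, osteopontin, was higher (1959.9 and 2027 against 5097 and 3334 CPM, log2 fold change 1.08, standard error 0.22, adjusted p = 0.0241). Ptger2, a receptor for prostaglandin E2, was lower (21.1 and 17.5 against 4.12 and 3.33 CPM, -2.37), and Ptges, which makes that prostaglandin, was higher (9.98 and 5.53 against 41.7 and 36.4 CPM, 2.33).

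Over all genes 14.8% were higher and 14.2% lower. Of 43 nuclear subunits of the respiratory chain, 3 were higher and 1 lower, with a median of 0.05. Of 42 lysosomal genes, 6 were higher and 4 lower, with a median of 0.015. Of 29 genes of glycolysis and HIF, 8 were higher and 7 lower, the glucose transporter gene Slc2a1 up by 0.68 and the hexokinase gene Hk2 at -0.83. Of 22 NRF2 targets, 4 were higher and 3 lower. Of 25 actin genes under SRF and its coactivators the MRTFs, of which MKL1 is one, 8 were higher and 1 lower, with 353 and 297 CPM in libraries 1 and 2 and 684 and 538 CPM in libraries 3 and 4 for Vasp, a regulator of actin filaments (log2 fold change 0.91, standard error 0.16, adjusted p = 0.0159). Across the 11781 tested genes with a matched transcript, the log2 fold change had a Spearman correlation of -0.071 with transcript length and 0.039 with GC content, given as a description across genes, which are not independent.

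Each count of cell type markers here stands against 14.8% of all genes higher and 14.2% lower, and the lists are short. Of 14 fibroblast markers, 0 of 12 tested were higher and 1 lower, and their summed level was 12.6, 27.7, 18.6 and 20.99 CPM in WT libraries 1 to 4. The T cell genes Cd3e, Cd3g and Trac, the mast cell genes Cpa3 and Fcer1a, the neutrophil gene Ly6g and the haemoglobin gene Hbb-bs had no count in any WT library. The 2 mast cell and basophil markers that could be tested were both higher. Hdc, which makes histamine, had 0.1200 and 0 CPM in libraries 1 and 2 and 7.63 and 2.27 CPM in libraries 3 and 4 (log2 fold change 6.19, standard error 1.11, adjusted p = 0.0208). Kit, the receptor for stem cell factor, had 1.97 and 1.38 CPM in libraries 1 and 2 and 4.23 and 7.98 CPM in libraries 3 and 4 (log2 fold change 1.86, standard error 0.38, adjusted p = 0.0249). Of 6 progenitor markers tested, 4 were higher and 0 lower, Kit, which is in both lists, Myb, Gfi1 and Cd34. Cd34, a marker of stem and progenitor cells, had 0.2399 and 0.143 CPM in libraries 1 and 2 and 9.48 and 1.82 CPM in libraries 3 and 4 (adjusted p = 0.0358). The summed level of the list was 4.01, 4.55, 17.7 and 13.9 CPM. Of the 14 dendritic cell markers, 2 of 6 tested were higher, Ciita and Ccl22, Batf3 was lower, and Flt3, Ccr7 and Xcr1 stayed below 1 CPM. Of 4 T and NK cell genes tested 3 were higher, Cd4 among them (0.888 and 1.203 against 2.73 and 1.99 CPM). Of 9 osteoclast markers tested 3 were higher and 1 lower, Acp5 (14.6 and 15.7 against 3.03 and 4.31 CPM), at summed levels of 203, 209, 213 and 269 CPM. Of 9 monocyte markers tested, 4 were higher, and Ccr2, the receptor for CCL2, did not pass (1.296 and 1.604 against 37.1 and 5.74 CPM, adjusted p = 0.0528). Pf4, a platelet chemokine that macrophages also express, was higher (12.2 and 14.8 against 70.3 and 92.2 CPM, 2.59), and so were 2 of 5 endothelial markers tested, the VEGF receptor gene Kdr (18.9 and 18.6 against 169 and 66.6 CPM, 2.65) and Eng (13.9 and 15.3 against 41.3 and 33.5 CPM, 1.36). The summed level of the endothelial markers was 102, 84.6, 260.1 and 149 CPM, while Cldn5, Tek and Tie1 of endothelium stayed below 1 CPM. The part of these genes in the results was not tested.

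The KO libraries of the same experiments give a second look at what goes with the experiment, from other libraries. In the fit of all 8 libraries, 5240 of 15618 genes (33.6%) differed between the experiments in KO, 2725 higher and 2515 lower in experiment 2. The difference between experiments itself differed between WT and KO in 6217 genes (39.8%). Of the 4165 genes that differed in WT, 2947 had the opposite sign in KO. Of these, 2864 passed the interaction test, which holds the same WT libraries, so a pass was nearly fixed by this choice of genes. The share of opposite sign over all genes was not counted. Of 1885 genes called in both genotypes, 356 went the same way and 1529 the opposite way. The KO count fell to 1741 without KO library 5, to 2352 without library 6 and to 3201 without library 8.

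**Figure D4:**
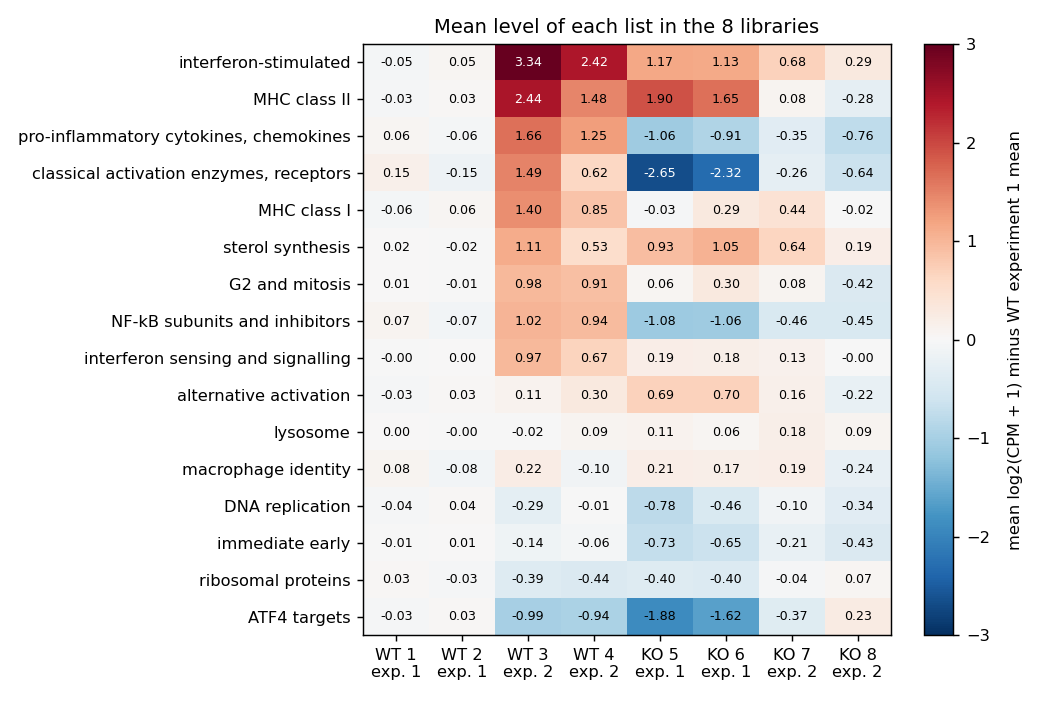
Mean over the tested members of 16 lists of log2(CPM + 1) minus the mean of WT libraries 1 and 2 (colour and printed value), in the 4 WT and 4 KO libraries (columns). WT library 3 is highest for interferon-stimulated genes at 3.34, KO libraries 5 and 6 lie at 1.90 and 1.65 for MHC class II beside 2.44 and 1.48 in WT libraries 3 and 4, and they have the lowest values for classical activation enzymes.

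The lists fell into different kinds by their KO values. MHC class II was high in the KO libraries of experiment 1 and low in those of experiment 2, and Ciita had 18.3, 10.7, 0.269 and 0.0723 CPM in KO libraries 5 to 8 (interaction 12.49, adjusted p = 6.58e-05). Of 13 class II genes tested, 10 were lower in KO experiment 2 than in KO experiment 1 and 12 passed the interaction test, with medians of 2.32 in WT and -1.75 in KO. Over all 15618 genes, 2515 were lower and 2725 higher in KO experiment 2, and 39.8% passed the interaction test. Csf1 followed the same pattern with 43.7, 61.8, 4.300 and 3.11 CPM in KO. ATF4 targets were the reverse, with 19 of 21 higher in KO experiment 2 and medians of -0.86 in WT and 1.82 in KO. Slc13a3 had 0.696, 0.594, 969 and 2149 CPM in KO, Cd55 had 1.58, 1.21, 154 and 171 CPM and Ptprm had 1.53, 1.26, 47.7 and 87.8 CPM, so in these genes too the KO libraries of experiment 1 were low and those of experiment 2 high. The levels were not the same as in WT experiment 2, since Slc13a3 was lower still and Ptprm higher in KO libraries 5 and 6.

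Other genes were higher in both WT libraries of experiment 2 than in any other library. Tnf had 20.1, 26.5, 128 and 124 CPM in KO libraries 5 to 8, Cxcl2 had 1.901, 2.600, 25.04 and 24.8 CPM, Il1b had 0.294, 0.5199, 0.904 and 0.265 CPM and Cd40 had 11.4, 9.46, 8.87 and 6.63 CPM. Ifi205 had 1.07, 1.41, 2.15 and 1.18 CPM and Cxcl10 had 4.39, 6.24, 1.95 and 0.916 CPM. Over the interferon-stimulated list the mean log2(CPM + 1) above WT experiment 1 was 3.34 and 2.42 in WT libraries 3 and 4 and 1.17, 1.13, 0.68 and 0.29 in KO libraries 5 to 8. Of its 53 genes, 52 passed the interaction test, against 39.8% of all genes, with a KO median of -0.79. In KO itself 16 of the 53 were lower and 0 higher, where 2515 and 2725 of all 15618 genes were. For NF-κB genes 18 of 20 passed the interaction test and both medians were above 0, 0.83 in WT and 0.51 in KO. Mitosis genes had 37 of 43 past the interaction test, with a KO median of -0.24. In KO itself 9 mitosis genes were lower and 1 higher.

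Fibroblast markers moved with the experiment in KO. Their summed level was 315 and 407 CPM in KO libraries 5 and 6 and 29.7 and 5.47 CPM in KO libraries 7 and 8. In KO experiment 2, 11 of 12 tested were lower, where 2515 of all 15618 genes were. The part of the fibroblast markers in the KO and interaction values was not tested. In WT the summed level stayed at 27.7 CPM or less.

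**Figure D5:**
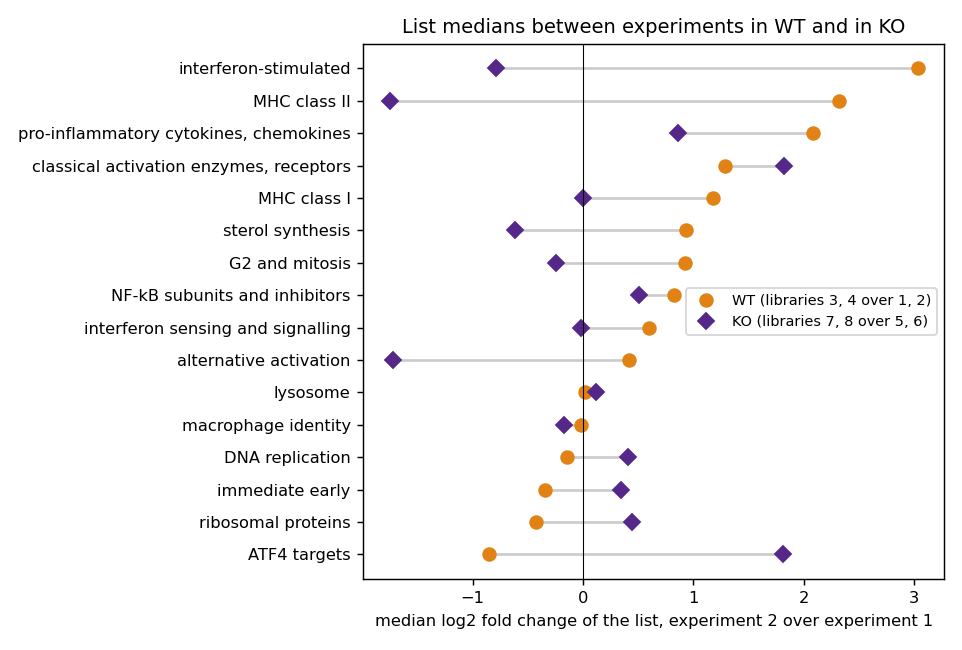
Median log2 fold change between the experiments for 16 gene lists (horizontal axis), orange circles for WT and purple diamonds for KO. MHC class II lies at 2.32 in WT and -1.75 in KO and ATF4 targets at -0.86 and 1.82, whereas pro-inflammatory ligands, classical activation enzymes and NF-κB genes lie above 0 in both.

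Within the pairs, single genes differed as much as between experiments. Npy, a neuropeptide, had 137 and 108 CPM in libraries 1 and 2 and 0.321 and 159 CPM in libraries 3 and 4, so library 3 alone lacked it. Wdfy1, an endosomal adaptor, had 59.02 and 13.2 CPM in libraries 1 and 2 and 65.6 and 13.3 CPM in libraries 3 and 4, high in libraries 1 and 3 and low in libraries 2 and 4. Gdf3, a TGF-β family ligand, had 1.895 and 12.8 CPM in libraries 1 and 2 and 53.8 and 22.7 CPM in libraries 3 and 4. These 3 genes were chosen after their values were seen. Among genes whose mean level was 3 or more on the log2 CPM scale, 2 differed by 4-fold or more between libraries 1 and 2 and 18 between libraries 3 and 4, H2-Aa, H2-Eb1 and Ccr2 among the latter. In DNA replication, library 4 was above library 3 in all but 5 of 42 genes, and in NRF2 targets in all but 2 of 22.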

How the data were processed

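Bulk RNA-seq was made from BMDMs of Ang II-infused mice, in 2 WT and 2 KO libraries in each of 2 experiments, with a stranded mRNA kit. The submitters' processing notes name STAR 2.7.0f, Subread 1.6.4 with featureCounts, DESeq2 1.22.1 and GRCm38. The strand setting of the counting is not given in the sources used here, so overlapping and antisense genes are uncertain. The authors deposited raw counts per gene for each experiment, which were joined by gene name, and normalized counts, whose size factors were set within an experiment and which were not used here. Of these count columns 8 were used.

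The 4 WT libraries (33977799 to 41584540 counts) were fitted with edgeR 4.0.16 in R 4.3.3, with filterByExpr, TMM factors and the quasi-likelihood test, and p-values were adjusted by Benjamini-Hochberg across every gene in the fit, at a threshold of 0.05. KO and interaction values came from the same test on 4 group means over all 8 libraries. Samples were grouped by their labels. An exact permutation test of 2 against 2 libraries cannot go below a p of 1 in 3, so none was used. Log2 fold changes came from the fit, with a standard error for the genes given in most detail, and plain ratios of counts are named as ratios. CPM used TMM-scaled totals. Exact intervals and floors (3 counts per library) cover counting error only. The members and the 53 gene lists were chosen with earlier results of these data known. Named genes were the 12 largest changes in each direction among genes that passed, reached 3 or more in mean log2 CPM and did not overlap between experiments, and in each list the 4 members with the smallest p and the 2 with the largest change. Other genes named were chosen after their values were seen. The test was run on simulated data in which every library varied alike. The pairs of WT libraries did not, so that run does not check the test for them. Alternatives were DESeq2 1.42.0, limma 3.58.1 (voom), other scalings, filters and thresholds, all 8 libraries, and leaving out each library. Some genes are not reported here.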

Additional observations from a re-analysis of the deposited data

Results flagged for a closer look

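The difference between experiments was itself compared between WT and KO by the interaction term of the 8-library edgeR fit, and it differed in 6217 of 15618 genes. By sign alone, at any size, the WT and KO medians were opposite in 34 of 53 gene lists. Some of these medians lay near 0, and some lists share genes. Of these 34 lists, 7 had at least 10 genes tested and 75% or more past the interaction test. For interferon-stimulated genes 52 of 53 members passed, with medians of 3.04 in WT and -0.79 in KO. For MHC class II 12 of 13 passed, with medians of 2.32 and -1.75. For sterol synthesis 22 of 25 passed (0.93 and -0.61), for mitosis 37 of 43 (0.92 and -0.24), for ribosomal proteins 65 of 74 (-0.43 and 0.44) and for ATF4 targets 19 of 21 (-0.86 and 1.82). For fibroblast markers 10 of 12 passed (0.26 and -4.27), and their summed level was 315, 407, 29.7 and 5.47 CPM in KO libraries 5 to 8 against at most 27.7 CPM in WT. The part of the fibroblast markers in the other values was not tested. In KO itself, 16 of 53 interferon-stimulated, 10 class II, 10 sterol and 9 mitosis genes were lower, with 1 mitosis gene higher. There 56 ribosomal genes and 19 ATF4 targets were higher, with 1 ATF4 target lower. Over all 15618 genes, 2515 were lower and 2725 higher in KO.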

How the results depend on the processing

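The experiments may differ in any respect the labels leave out, each group has 2 libraries, and the calls depend on libraries 1 and 2. Leaving out each WT library in turn gave 134 to 6295 calls, 79 to 3191 of them higher and 55 to 3104 lower. With a library left out, the lone library is assumed to vary like the other pair. Between these fits interferon-stimulated genes had 2 to 53 members higher (median 2.20 to 3.43), interferon sensing 2 to 17 (0.53 to 0.94), MHC class II 1 to 11 (1.65 to 3.37), MHC class I 1 to 19 (0.87 to 1.43), ligands 4 to 16 (1.30 to 2.03), classical enzymes and receptors 4 to 11 (0.59 to 1.58), NF-κB genes 3 to 16 (0.75 to 0.90), mitosis 0 to 42 (0.92 to 0.97) and sterol synthesis 0 to 24 (0.53 to 1.24). ATF4 targets had 3 to 19 members lower (-0.92 to -0.83) and ribosomal proteins 0 to 61 (-0.46 to -0.40). In KO the range was 1741 to 5563 calls, 856 to 2939 higher and 885 to 2624 lower, and for the interaction 4182 to 6672.

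At an adjusted p under 0.01 there were 1203 calls, 633 higher and 570 lower, with 28 interferon-stimulated, 5 sensing, 2 class II, 3 class I, 4 classical enzyme and 3 sterol genes higher and 12 ribosomal genes lower. With a change of at least 2-fold required, 1582 genes passed, 929 higher and 653 lower, with 8 sensing, 8 NF-κB, 17 mitosis and 8 sterol genes higher, and 8 ATF4 targets and 0 ribosomal genes lower. Without a filter on low counts, 11 interferon-stimulated, 7 class II (median 2.87), 10 class I, 5 classical enzyme and 9 sterol genes passed. The limma-voom test gave 7 class II genes and a ligand median of 1.83, and a minimum of 10 counts in every library a class II median of 1.23. Upper-quartile scaling gave medians of 0.88 for mitosis and -0.47 for ribosomal proteins, and library totals alone 0.88 and -0.47, with -0.89 for ATF4 targets. The cause was not tested in these cases. DESeq2 called 4163 genes, limma-voom 4109, upper-quartile scaling 4167, library totals 4083, no filter 4823, the 10-count minimum 3917 and the fit of all 8 libraries 4533, and each held 91.1% to 96.9% of the calls reported here, all in the same direction. Of the single genes named, Fcgr1 and Tlr9 changed sign without WT library 3, with ranges of -0.45 to 1.07 and -0.83 to 0.95 over the libraries left out. No paired analysis was possible because the labels give each library its own number.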
